A study of Sus scrofa with 102 samples.

Results

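The expression of 6 ribosome biogenesis factors, *MRTO4*, *IMP4*, *NAT10*, *NIFK*, *NOB1* and *NPM3*, was described in *Longissimus dorsi* muscle of 102 backcross pigs. The members were found by gene symbol in the annotation of the array. Of 5449 tested probes, 9 carried one of the 6 symbols, and the 6 genes stood among 2201 named genes. For *NAT10*, *NIFK* and *NOB1*, which had a pair of probes each, the probe with the highest mean stood for the gene. The genes had been chosen by results of the same arrays. *IMP4* and *NAT10* had been picked from probes that moved with the one the study names *RDH16*, and *NPM3* from those that moved against *IL1R2*. Which values chose *MRTO4*, *NIFK* and *NOB1* is not known here. The pigs, 55 females and 47 males, were backcross offspring of Landrace sows and of boars that were themselves Iberian by Landrace, and all were fed ad libitum. No treatment was compared. Each pig gave 1 array and belonged to 1 of 3 slaughter batches. There were 14 pigs in batch 1 (8 females), 70 in batch 2 (36 females) and 18 in batch 3 (11 females). They were slaughtered at 171 to 181, 178 to 184 and 178 to 181 days of age, respectively. Carcass weight ranged from 43.6 to 97.8 kg, with means of 65.9 ± 10.2, 73.3 ± 8.85 and 64.6 ± 11.7 kg (SD) in batches 1, 2 and 3. The labels give no hybridization batch, so slaughter batch and any array processing that went with it cannot be told apart.

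Ribosomes are built in the nucleolus, where RNA polymerase I transcribes a long precursor of ribosomal RNA (rRNA) that is cut, modified and folded onto ribosomal proteins. A large set of assembly factors takes part and leaves before the small and the large subunit begin translation in the cytoplasm. In skeletal muscle the supply of ribosomes is linked to protein synthesis and to growth. *IMP4* belongs to the particle that makes the early cuts that release the small-subunit rRNA. *NAT10* is the acetyltransferase that modifies cytidines in that rRNA. *NOB1* is the endonuclease that trims its end in the last step of small-subunit maturation. *MRTO4* is an assembly factor of the large subunit that resembles a protein of the ribosomal stalk. *NIFK* is a nucleolar RNA-binding protein of large-subunit assembly that also binds the proliferation marker Ki-67. *NPM3* is a nucleolar histone chaperone of the nucleoplasmin family.

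The deposited values are log2 intensities from GCRMA, which corrects background by probe sequence and then normalizes the arrays. The authors had kept only probes that varied between the arrays, and all 9 probes of the 6 factors are in that table. Differences between pigs are given per probe, and levels of different genes are not ranked because probes bind with different strength. For every probe, limma estimated the effects of sex, batch and weight together, and two-sided p-values were adjusted by Benjamini-Hochberg over the 5449 probes and called under 0.05. To relate 2 genes, those 3 effects were first removed from both and the residuals compared. In 4 arrays, 3 labelled female and 1 labelled male, sex-specific signal lay between the sexes or on the other side of the label, and 6 arrays stood apart from the others by their correlation with them. Markers of the muscle fibre (*DES*, *RYR1*, *ATP2A1*, *PYGM* and *CAPN3*, 5 of 20 listed) had mean log2 intensities of 12.80 to 13.20, near the top of the scale. In whole muscle, fewer cells of a type and less RNA per cell cannot be told apart.

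*MRTO4* spanned 3.55 to 6.98 over the 102 pigs, a 10.8-fold range, with a median of 5.51. *IMP4* spanned 6.54 to 8.82 (4.88-fold), with a median of 7.63. *NAT10* spanned 3.98 to 6.17 (4.57-fold), with a median of 5.38. *MRTO4* thus varied over a wider range than the other 2 of these genes. *NIFK* spanned 8.15 to 10.68 (5.78-fold) with a median of 9.34, and *NOB1* spanned 3.13 to 5.65 (5.76-fold) with a median of 4.83. *NPM3* spanned 2.35 to 6.38 (16.3-fold), but its median was 3.05. Its mean of 3.30 was higher than that of only 2.43% of the tested probes, so most pigs lay near the bottom of the scale and a few high pigs made the range. The means of the other 5 genes lay between the 18.7 and 90.4 percentiles of all probes.

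**Figure D1:**
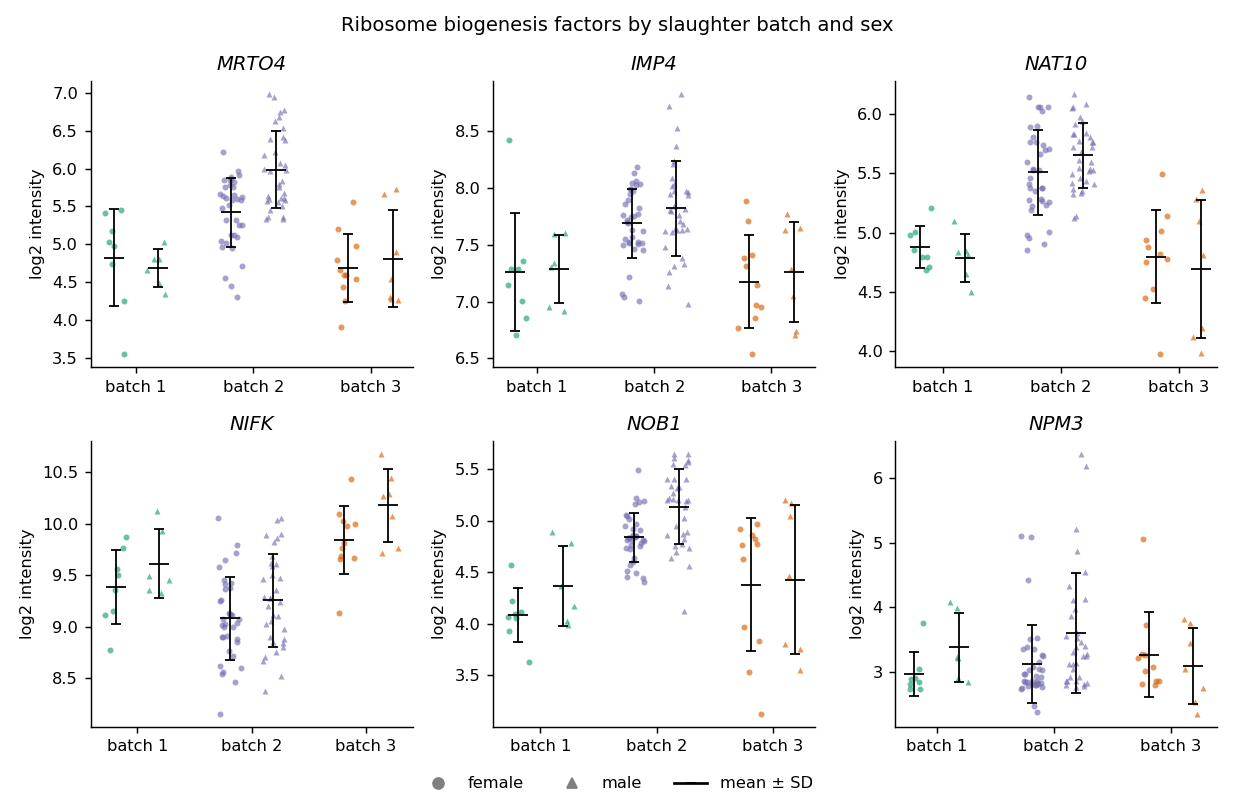
Log2 intensity (vertical axis) of the 6 factors in each pig, by slaughter batch and sex (horizontal axis). Circles are females, triangles are males, and black bars give the mean ± SD of 8, 36 and 11 females and of 6, 34 and 7 males in batches 1, 2 and 3. *MRTO4*, *IMP4*, *NAT10* and *NOB1* were highest in batch 2, *NIFK* was lowest there, and *NPM3* was below 4 in most pigs of every batch.

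*MRTO4*, *IMP4*, *NAT10* and *NOB1* were higher in batch 2 than in both other batches, *NIFK* was lower in batch 2, and *NPM3* did not pass the test for batch. So 5 of 6 factors were called, in a table in which 86.6% of all tested probes were called for batch. Batch 2 was the highest for 45% of all probes, the lowest for 36.5% and in between for 5.18%. The count of the 6 factors was thus near that of the whole array.

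For *NAT10*, the lowest, median and highest values were 4.50, 4.82 and 5.21 in batch 1, 4.85, 5.54 and 6.17 in batch 2, and 3.98, 4.81 and 5.49 in batch 3. None of the 14 pigs of batch 1 and none of the 18 pigs of batch 3 reached the median of batch 2, and 10 pigs of each fell below its lowest pig. The fitted difference from batch 2 was -0.69 ± 0.11 in batch 1 and -0.77 ± 0.097 in batch 3 (log2, SE, limma adjusted p = 2.08e-13), or 0.619 and 0.587 times the level of batch 2. For *MRTO4* the lowest, median and highest values were 3.55, 4.81 and 5.45 in batch 1, 4.30, 5.64 and 6.98 in batch 2, and 3.90, 4.60 and 5.73 in batch 3. No pig of batch 1 and 2 pigs of batch 3 exceeded the median of batch 2, although the ranges overlapped. Its differences were -0.87 ± 0.15 and -0.88 ± 0.14 (limma adjusted p = 4.10e-10), the largest falls among the probes that stood for the 6 factors.

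*NOB1* had lowest, median and highest values of 3.63, 4.10 and 4.90 in batch 1, 4.13, 4.90 and 5.65 in batch 2, and 3.13, 4.70 and 5.21 in batch 3. All 14 pigs of batch 1 lay below the median of batch 2, whereas batch 3 was split, with 5 pigs above that median and 7 below the lowest pig of batch 2. The differences were -0.75 ± 0.12 and -0.55 ± 0.11 (limma adjusted p = 4.27e-09). *IMP4* had values of 6.71, 7.29 and 8.42 in batch 1, 6.98, 7.75 and 8.82 in batch 2, and 6.54, 7.21 and 7.88 in batch 3. Its differences were the smallest of the 4 genes, -0.42 ± 0.12 and -0.47 ± 0.11 (limma adjusted p = 1.49e-05), and 1 pig of batch 1 and 2 of batch 3 exceeded the median of batch 2.

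*NIFK* ran the other way, with lowest, median and highest values of 8.77, 9.47 and 10.13 in batch 1, 8.15, 9.11 and 10.06 in batch 2, and 9.13, 9.99 and 10.68 in batch 3. All 18 pigs of batch 3 and 13 of the 14 pigs of batch 1 lay above the median of batch 2. The differences were 0.33 ± 0.12 and 0.83 ± 0.12 (limma adjusted p = 1.34e-09). The second probe of *NIFK* did not show this pattern, with medians of 7.05, 7.24 and 7.25 in batches 1, 2 and 3 and differences of -0.12 ± 0.14 and 0.04 ± 0.13 (limma adjusted p = 0.637). The batch difference of *NIFK* therefore holds for 1 of its probes only. The second probes of *NAT10* (-0.86 and -0.92) and *NOB1* (-0.89 and -0.81) fell in batches 1 and 3 as the first ones did. *NPM3* had medians of 2.91, 3.07 and 3.06, and its differences of -0.17 ± 0.22 and -0.091 ± 0.20 were smaller than their errors (limma adjusted p = 0.729).

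**Figure D2:**
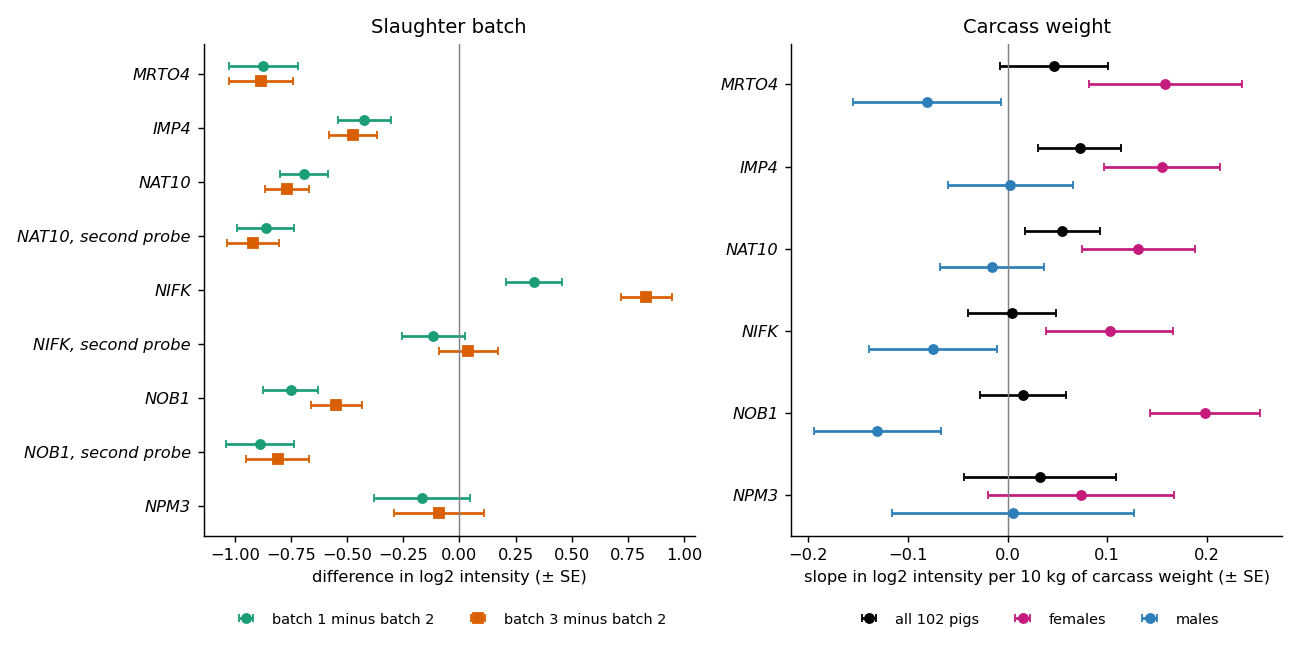
Fitted differences from batch 2 for all 9 probes of the 6 factors (left, log2 intensity ± SE) and slopes per 10 kg of carcass weight for the 6 factors in all 102 pigs, 55 females and 47 males (right, log2 intensity ± SE). The 2 probes of *NIFK* disagree on batch, and all 6 slopes of females lie above 0 while those of males lie on both sides of it.

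The other ribosome biogenesis genes in the table changed with batch as well. All 26 of them passed the test, 19 with batch 2 the highest and 6 with batch 2 the lowest. Of all tested probes, 86.6% passed, 45% with batch 2 the highest and 36.5% with batch 2 the lowest. The median difference over the 26 genes was -0.59 in batch 1 and -0.61 in batch 3, against -0.56 and -0.51 over the 6 factors and -0.11 and -0.17 over all tested probes. Each of the 3 measured genes of RNA polymerase I transcription (of 21 listed) and each of the 4 of rRNA modification (of 27 listed) was highest in batch 2. The other lists were mixed. Of 8 genes of small-subunit assembly, 4 were highest and 3 lowest in batch 2. Of 7 genes of large-subunit assembly, 6 were highest and 1 lowest, and of 4 nucleases that trim rRNA, 2 were highest and 2 lowest. *GRWD1*, a histone-binding protein that also acts in large-subunit assembly, had the smallest p, with differences of -1.29 ± 0.14 and -1.39 ± 0.13 (limma adjusted p = 9.19e-21). *EXOSC5*, a subunit of the RNA exosome (-0.70 and -1.03), *ISG20L2*, an exonuclease that trims rRNA (-1.12 and -0.78), *NOP2*, an rRNA methyltransferase (-0.83 and -0.60), and *TBL3* of the small-subunit processome (-0.89 and -0.84) fell in both batches. *FCF1*, a nuclease of the small-subunit processome, was lowest in batch 2 like the first probe of *NIFK*, by 0.66 ± 0.093 and 1.00 ± 0.086 (limma adjusted p = 1.34e-19). The others with batch 2 the lowest were *C1D*, *ESF1*, *EXOSC3*, *NOL8* and *RRP36*.

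The cytosolic ribosomal proteins, which are the cargo of the assembly factors, moved mainly in the opposite direction where they were measured. Only 14 of 86 listed were among the probes kept for varying between arrays, so the others are not covered. Their mean log2 intensities ran from 3.02 (*RPL13A*) to 8.76 (*RPS27*). Of 14 measured, 13 passed the test for batch, 11 with batch 2 the lowest and 1 with batch 2 the highest, and their median differences were 0.80 in batch 1 and 1.00 in batch 3. The 4 control probes for rRNA had means of 4.71, 3.88 and 4.49 (small subunit), 10.20, 9.14 and 9.04 and 9.91, 9.23 and 9.68 (both probes of the large subunit), and 3.37, 3.05 and 2.96 (the short rRNA of the large subunit) in batches 1, 2 and 3. Their residuals correlated with those of the 6 factors at r of -0.182 to 0.177. The probes of the small subunit and of the short rRNA lay low on the scale. Whether the control probes follow the amount of rRNA in the muscle was not tested.

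RNA quality moved with the same contrast. The difference between the 5′ and middle probe sets of actin, which falls as RNA is degraded, was -1.28 ± 0.30 in batch 1, -0.80 ± 0.29 in batch 2 and -1.32 ± 0.43 in batch 3 (SD). With it as a further effect, 5 of 6 factors remained called for batch, and *MRTO4* differed by -0.66 and -0.65. The mean of the 5 muscle fibre markers also moved with batch, with a range of 11.52 to 13.71 in batch 1, 12.05 to 14.07 in batch 2 and 10.53 to 13.13 in batch 3, none of the markers being near the bottom of the scale. The part of the markers in the batch differences was not tested.

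Carcass weight showed no called relation with any factor. In limma, 0 of 6 factors rose and 0 fell with weight, as did 0% of all tested probes in each direction. At an unadjusted p under 0.05, 268 of 5449 probes rose and 321 fell, and 0 of the probes that stood for the 6 factors did either. The slopes per 10 kg were 0.07 ± 0.041 for *IMP4*, 0.06 ± 0.037 for *NAT10*, 0.05 ± 0.054 for *MRTO4*, 0.03 ± 0.076 for *NPM3*, 0.02 ± 0.043 for *NOB1* and 0.005 ± 0.044 for *NIFK* (log2, SE). The second probe of *NAT10* had a steeper slope of 0.13 ± 0.045, with an unadjusted p of 0.00415 that did not pass over all probes (limma adjusted p = 0.337). Among the 95% intervals of the probes that stood for the 6 factors, the highest upper bound was 0.18 per 10 kg, for *NPM3*. The lowest lower bound was -0.12, for the same gene. No interval was computed for the second probes. When sex and batch were left out, 4 of 6 factors passed for weight, *MRTO4* (0.24), *IMP4* (0.16), *NAT10* (0.19) and *NOB1* (0.15). Batch 2, in which these 4 genes were highest, held the heavier carcasses, and the slopes were also computed within batches. Within batch 2 they were -0.006 ± 0.069 for *MRTO4*, 0.08 ± 0.053 for *IMP4*, 0.03 ± 0.048 for *NAT10* and -0.04 ± 0.046 for *NOB1*. Within batch 3 they were 0.13 ± 0.11, 0.17 ± 0.086, 0.12 ± 0.099 and 0.26 ± 0.13 in the same order, and within batch 1 they were -0.01 ± 0.15, -0.13 ± 0.13, 0.02 ± 0.089 and -0.18 ± 0.10. No slope within a batch passed the test.

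Within females all 6 slopes on weight were above 0, from 0.07 ± 0.093 for *NPM3* to 0.20 ± 0.055 for *NOB1* (limma adjusted p = 0.0622), and none passed the threshold, which 45 of 5449 probes did in females. The unadjusted limma p was 0.000708 for *NOB1*, 0.00981 for *IMP4*, 0.0245 for *NAT10* and 0.0429 for *MRTO4*. Within males, where 0 probes passed, they ran from -0.13 ± 0.064 for *NOB1* to 0.006 ± 0.12 for *NPM3*. The difference between the sexes had an unadjusted p of 0.00141 for *NOB1* and 0.0379 for *NIFK* in limma, and neither passed over all probes (adjusted p = 0.550 and 0.914). Among the other 26 ribosome biogenesis genes, 0 passed for weight, and 6 rose and 2 fell at an unadjusted p under 0.05. *GNL3L*, a nucleolar GTPase, had the smallest p with a slope of 0.11 ± 0.036 (limma adjusted p = 0.337), followed by *ESF1* (-0.13), *DDX56* (0.083), *EXOSC5* (0.092), *MYBBP1A* (0.099) and *NOL8* (-0.13).

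All 6 factors had lower fitted values in females than in males, and 2 of 6 passed the test, where 26.1% of all tested probes did. *MRTO4* had lowest, median and highest values of 3.55, 5.25 and 6.21 in females and 4.27, 5.64 and 6.98 in males. The difference was -0.38 ± 0.10 (log2, SE, limma adjusted p = 0.00414), or 0.770 times the level of males. *NOB1* had values of 3.13, 4.79 and 5.50 in females and 3.55, 5.05 and 5.65 in males, with a difference of -0.25 ± 0.082 (limma adjusted p = 0.0186). The ranges of the sexes overlapped for both genes. For *MRTO4* the difference was -0.57 ± 0.12 within batch 2 (limma adjusted p = 0.000363), but 0.14 ± 0.29 within batch 1 and -0.06 ± 0.25 within batch 3. Without the 4 arrays that went against their sex label it was -0.42 over all batches. For *NOB1* it was -0.32 ± 0.081 within batch 2 (limma adjusted p = 0.00224), -0.20 ± 0.20 within batch 1 and 0.10 ± 0.29 within batch 3. The sex by batch interaction of *MRTO4* had an unadjusted p of 0.0398 and did not pass over all probes (limma adjusted p = 0.636). The other 4 differences were -0.35 ± 0.14 (*NPM3*), -0.21 ± 0.084 (*NIFK*), -0.08 ± 0.078 (*IMP4*) and -0.05 ± 0.071 (*NAT10*). For *NPM3* the difference was -0.50 ± 0.19 within batch 2 (limma adjusted p = 0.0347), -0.42 ± 0.26 within batch 1 and 0.30 ± 0.28 within batch 3, and it passed over all batches when arrays were weighted by quality (limma adjusted p = 0.0425). *NIFK* passed without the 4 arrays that went against their sex label (-0.24, limma adjusted p = 0.0247). The second probe of *NOB1* differed by -0.24 and did not pass (limma adjusted p = 0.0709), while that of *NIFK* differed by -0.27 and did (limma adjusted p = 0.0261).

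After sex, batch and weight had been removed, most of the factors moved together from pig to pig. Of their 15 pairs, 13 had a positive r and the median was 0.319. *IMP4* and *NAT10* had both been picked for moving with the same probe, so that pair is given without a test. Of the other 14 pairs, 8 were called by limma with either gene as the effect, all with a positive r. Which values chose *MRTO4*, *NIFK* and *NOB1* is not known here, so the tests of their pairs may not be free of that choice. Among all probes, 33.5% rose with *MRTO4*, 22.9% with *IMP4*, 32.6% with *NAT10*, 17.2% with *NIFK*, 12.6% with *NOB1* and 11% with *NPM3*. *MRTO4* and *NAT10* were the closest pair at r = 0.494 and rho = 0.471 (n = 102, permutation p = 1e-05 for both, the smallest that 100000 permutations can give, limma adjusted p = 5.10e-06). Their r was 0.171, 0.517 and 0.599 within batches 1, 2 and 3, and 0.449 without the 2 pigs farthest from the median of *MRTO4*. *IMP4* and *NAT10* followed at r = 0.429 and rho = 0.393. *NOB1* moved with *NAT10* (r = 0.407, rho = 0.372, limma adjusted p = 0.000124), *IMP4* (r = 0.390, rho = 0.401, limma adjusted p = 0.00103) and *MRTO4* (r = 0.351, rho = 0.384, limma adjusted p = 0.00136), with permutation p of 2e-05 to 0.00041. *MRTO4* and *IMP4* had r = 0.319 and rho = 0.254 (permutation p = 0.00129 and 0.0102, limma adjusted p = 0.00406). The pairs among *MRTO4*, *IMP4*, *NAT10* and *NOB1* thus had r of 0.319 to 0.494. These genes were put together with the r values at hand. A count of called pairs among them would therefore be no test of the group.

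The 14 pigs of batch 1 did not always follow, since *MRTO4* and *NOB1* had r = -0.395 there against 0.458 in batch 2 and 0.517 in batch 3, and *MRTO4* and *IMP4* had r = -0.006 there against 0.311 and 0.663. Of the 15 pairs, 8 were positive in batch 1, 13 in batch 2 and 14 in batch 3. In females 11 were positive and in males 15. *MRTO4* and *NOB1* had r = 0.108 in females and 0.562 in males. The other pairs among *MRTO4*, *IMP4*, *NAT10* and *NOB1* had r of 0.253 to 0.400 in females and 0.378 to 0.596 in males. The first principal component of the 6 residuals held 40.3% of their variance and the second 22.6%. All 6 factors lay above their fitted values in 4 pigs and below them in 9.

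**Figure D3:**
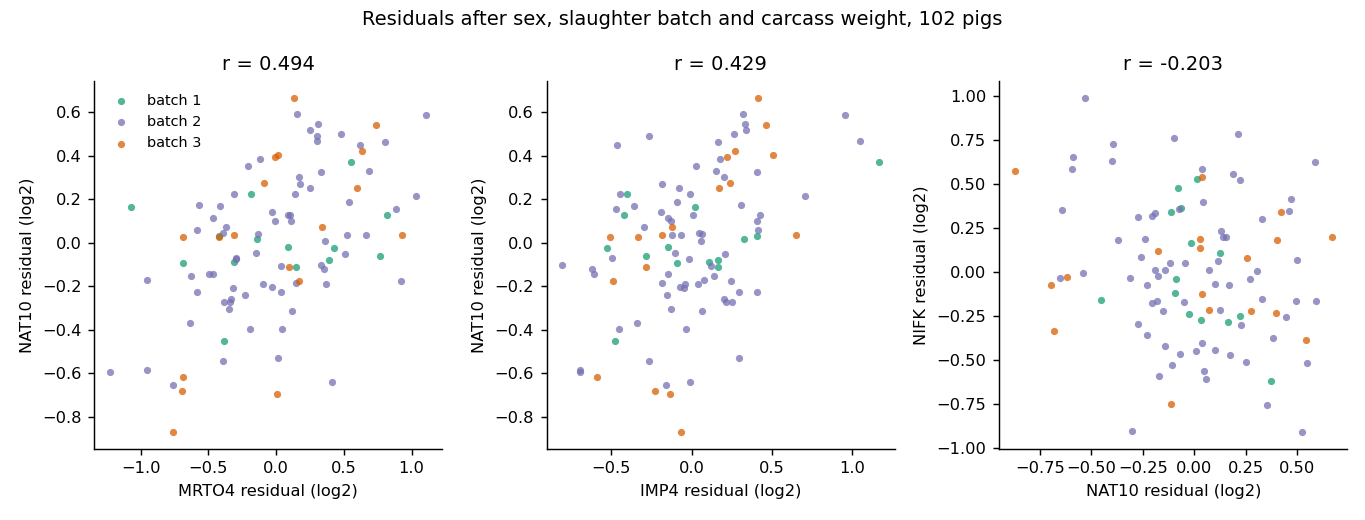
Residual log2 intensity after sex, slaughter batch and carcass weight for *MRTO4* with *NAT10*, *IMP4* with *NAT10* and *NAT10* with *NIFK*, 1 point per pig and coloured by batch. The first pairs rise together at r of 0.494 and 0.429, and *NAT10* and *NIFK* have r = -0.203.

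*NIFK* and *NPM3* stood partly outside this group. The 5 pairs with *NIFK* had a median r of 0.180, against 0.370 for the 10 pairs without it. *NIFK* had r = -0.203 with *NAT10* (permutation p = 0.0404, limma adjusted p = 0.0702) and -0.066 with *IMP4* (permutation p = 0.513), so neither was called. Its only called partner was *NPM3*, at r = 0.348 and rho = 0.207 (permutation p = 0.00031 and 0.0368, limma adjusted p = 0.00196). Its second probe followed the first at r = 0.765, and had r = 0.385 with *NOB1* and -0.011 with *NAT10*. *NPM3* was also called with *MRTO4* (r = 0.426, rho = 0.368, permutation p = 3e-05 and 0.00019, limma adjusted p = 4.50e-05) and *IMP4*. With *IMP4* the ranks showed less, as r was 0.302 (permutation p = 0.00216) and rho was 0.126 (permutation p = 0.207). The second probes of *NAT10* and *NOB1* followed the first ones at r = 0.590 and 0.671.

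Array quality moved with some of these residuals. The actin difference had r = 0.458 with *NAT10*, 0.310 with *MRTO4*, 0.187 with *NOB1*, 0.140 with *IMP4*, -0.138 with *NIFK* and -0.132 with *NPM3*. With it as a further effect, 20 ordered pairs of factors were called, against 18, counted over all 15 pairs. The median correlation of an array with the others had r = 0.355 with *NAT10* and 0.346 with *NOB1*. Its r was -0.324 with *NIFK*, -0.231 with *NPM3*, 0.012 with *MRTO4* and -0.0006 with *IMP4*. Without the arrays that stood apart, 280 probes rose and 174 fell with *NOB1*, against 688 and 596. With the first 2 principal components of the residuals as further effects, 4 ordered pairs were called. Under that setting 0 of 5448 probes rose with *MRTO4* and 1 fell, against 1823 and 1502 without it, so nearly every relation given here for *MRTO4* lost its call. *NIFK* had 12 rising and 12 falling calls, *NAT10* 156 and 224, *NPM3* 275 and 139, *IMP4* 287 and 186, and *NOB1* 656 and 655. The mean residual of the 5 muscle fibre markers had r = 0.695 with *NAT10*, 0.495 with *MRTO4*, 0.367 with *IMP4*, 0.234 with *NOB1*, -0.052 with *NPM3* and -0.432 with *NIFK*. The part of the fibre markers in the relations between the factors was not tested.

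The other 26 ribosome biogenesis genes moved with the factors in 2 ways. *MRTO4* rose with 15 of them and fell with 0, where 33.5% of all probes rose with it and 27.6% fell. *IMP4* rose with 14 and fell with 1 (22.9% and 13.2% of all probes), *NOB1* rose with 12 and fell with 0 (12.6% and 10.9%), and *NPM3* rose with 8 and fell with 0 (11% and 7.71%). *NAT10* rose with 16 and fell with 5 (32.6% and 31.5%). *NIFK* rose with 8 and fell with 4 (17.2% and 21.9%). As shares of the 26 genes, those that rose were 57.7% for *MRTO4*, 53.8% for *IMP4*, 61.5% for *NAT10*, 46.2% for *NOB1*, 30.8% for *NPM3* and 30.8% for *NIFK*. The median r over the 26 genes was highest with *NAT10* (0.446) and lowest with *NIFK* (0.022), and over all other probes it lay between -0.022 and 0.020 for each factor.

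*GRWD1* had the highest mean r with the 6 factors among the 26 genes (0.414), with r = 0.696 to *NAT10*, 0.553 to *IMP4* and 0.533 to *MRTO4* (permutation p = 1e-05 each), and -0.039 to *NIFK*. *PES1*, a factor of large-subunit assembly, had a mean r of 0.395 and was closest to *NAT10* (r = 0.651). *RRP9*, of the particle in which *IMP4* acts, had a mean r of 0.387 and r = 0.616 to *NAT10*. *NOP2* (mean r = 0.380) was closest to *MRTO4*, at r = 0.667, the highest r of any of the 26 genes with that factor. *EXOSC5* (mean r = 0.379) was the closest to *IMP4*, at r = 0.607, and *RUVBL2*, an ATPase that helps to assemble the modifying particles, had a mean r of 0.369. These 6 genes had r of -0.115 to 0.113 with *NIFK*.

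The 6 genes that were lowest in batch 2 also ran with *NIFK* after batch had been removed. Their r with *NIFK* was 0.536 for *EXOSC3*, 0.529 for *FCF1*, 0.479 for *NOL8*, 0.372 for *ESF1*, 0.274 for *RRP36* and 0.079 for *C1D*, and 5 of 6 were called. With *NAT10* all 6 had a negative r, from -0.093 to -0.420, and 5 were called. The 19 genes that were highest in batch 2 had a median r of 0.499 with *NAT10* (16 rose, 0 fell) and -0.037 with *NIFK* (2 rose, 4 fell). This grouping was made from the batch differences, and its difference in r was not tested.

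**Figure D4:**
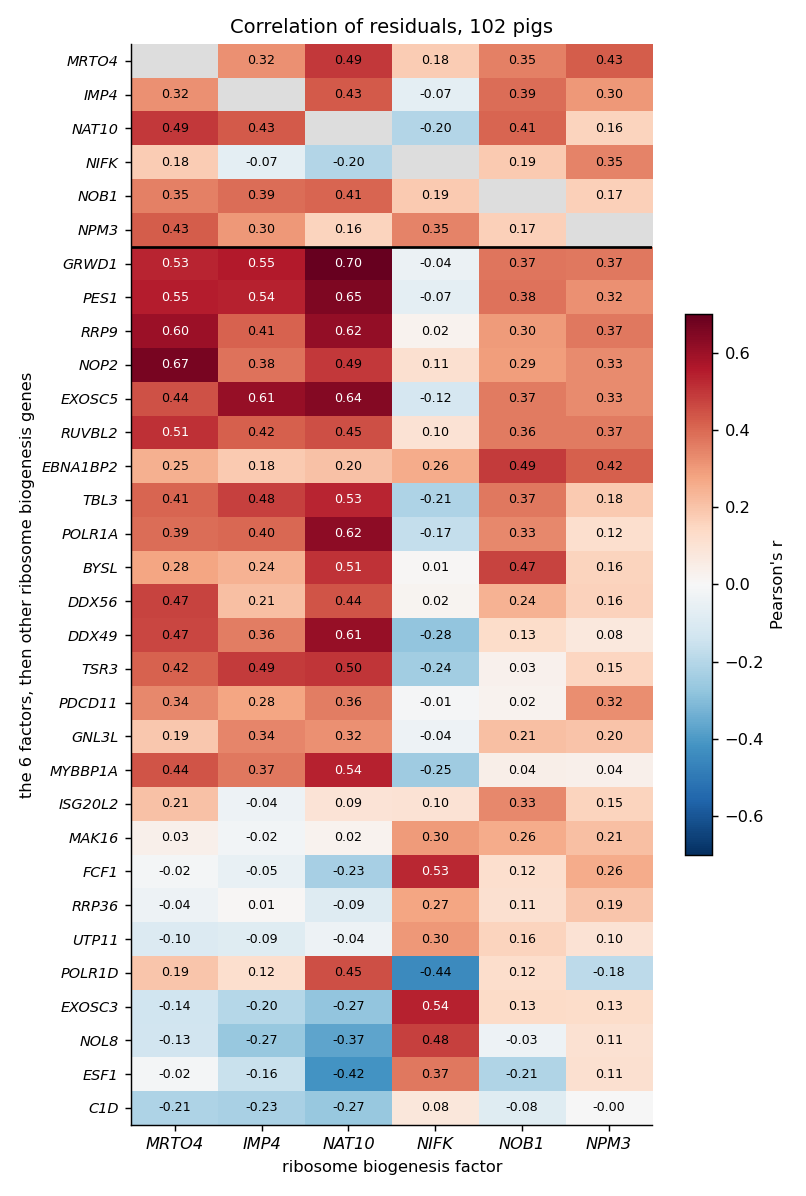
Pearson's r of residuals over 102 pigs between the 6 factors (columns) and, in the rows, the 6 factors and 26 other ribosome biogenesis genes, ordered by mean r (red above 0, blue below 0, grey for a gene with itself). *MRTO4*, *IMP4*, *NAT10* and *NOB1* share the upper rows, and the lower rows are red mainly for *NIFK*, with *FCF1* and *EXOSC3* at r of 0.529 and 0.536.

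The 14 cytosolic ribosomal proteins were rarely called with the factors. *MRTO4*, *IMP4* and *NAT10* rose with 0 and fell with 2 each, *NIFK* and *NOB1* rose with 1 and fell with 0 each, and *NPM3* was called with 0. The mean r with the 6 factors ran from -0.163 to 0.060 over the 14 proteins, with a median of -0.029.

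Over 2195 named genes the mean r with the 6 factors had a median of 0.085 and ran from -0.403 to 0.474. The gene most like the factors was *PUS1*, a pseudouridine synthase that modifies tRNA, at a mean r of 0.474, and it was called with all 6 (r = 0.565 with *MRTO4*, 0.409 with *IMP4*, 0.472 with *NAT10*, 0.361 with *NIFK*, 0.589 with *NOB1* and 0.449 with *NPM3*). Next came *STIP1*, a co-chaperone of heat shock proteins (0.466), *XPO5*, the nuclear export receptor of microRNA precursors (0.442), *SUPT6H*, a transcription elongation factor (0.438), *AP2M1*, a clathrin adaptor subunit (0.431), and *FARSA*, a subunit of phenylalanyl-tRNA synthetase (0.427). These 5 genes were called with 5 factors each, and their r with *NIFK* was -0.027 to 0.101. At the other end lay *AKAP7*, an anchoring protein of protein kinase A (-0.403), *RNF128*, a ubiquitin ligase (-0.381), *GLT8D2* (-0.361), *MXRA7* (-0.344), *C1QTNF3*, a secreted adipokine (-0.343), and *ADD3*, an adducin of the membrane skeleton (-0.335). *AKAP7* had r = -0.653 with *MRTO4* and -0.189 with *NIFK*.

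Of the muscle growth signalling genes, those with the largest mean r were *MYC*, a transcription factor that drives ribosome production (0.332), *MSTN*, or myostatin, an inhibitor of muscle growth (-0.282), *AKT1*, a kinase of the insulin pathway (0.240), and *FOXO1*, a transcription factor of muscle wasting (0.206). *MYC* rose with *NPM3* (r = 0.482, rho = 0.304, permutation p = 1e-05 and 0.00247), *NIFK* (r = 0.426, rho = 0.433, permutation p = 1e-05 for both) and *MRTO4* (r = 0.424, rho = 0.339, permutation p = 2e-05 and 0.00054), and had r = 0.122 with *NAT10* (permutation p = 0.224). *MSTN* fell with *NIFK* (r = -0.474, rho = -0.461), *NPM3* (r = -0.454, rho = -0.296) and *MRTO4* (r = -0.382, rho = -0.377), with limma adjusted p of 1.13e-05, 8.38e-05 and 0.000269. Its r with *NIFK* was -0.576, -0.421 and -0.728 within batches 1, 2 and 3. *AKT1* took the other side, as it rose with *NAT10* (r = 0.598, rho = 0.601, permutation p = 1e-05 for both) and *MRTO4* (r = 0.503, rho = 0.474) and fell with *NIFK* (r = -0.263, rho = -0.254, permutation p = 0.00695 and 0.00961, limma adjusted p = 0.0240).

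Immediate-early response genes, which cells switch on within minutes of a stimulus and which include *MYC*, rose with the factors more often than they fell. Of 13 measured, *MRTO4* rose with 10, *NOB1* with 7, *NIFK* with 5, *NAT10* and *NPM3* with 3 each and *IMP4* with 2, and no factor fell with any (0 of 13). Over all probes, 33.5% rose with *MRTO4*, 12.6% with *NOB1*, 17.2% with *NIFK*, 32.6% with *NAT10*, 11% with *NPM3* and 22.9% with *IMP4*. The counts of *NAT10* and *IMP4* thus lay below the share of the whole array. From 7.71% to 31.5% of all probes fell with a factor. Their mean r with the 6 factors had a median of 0.199, against 0.085 over all named genes, and was above 0 for 12 of 13. *MRTO4* had r = 0.475 with *ZFP36*, 0.437 with *ATF3* and 0.312 with *FOS*, and the part of this response in the relations between the factors was not tested.

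The lipid genes were compared with the factors because the study searched these arrays for genes of fatty acid metabolism. Of 46 lipid genes, *MRTO4* rose with 18 (39.1%) and fell with 9 (19.6%), and *IMP4* rose with 15 (32.6%) and fell with 2 (4.35%). *NAT10* rose with 16 (34.8%) and fell with 11 (23.9%), and *NIFK* rose with 13 (28.3%) and fell with 8 (17.4%). *NPM3* rose with 11 (23.9%) and fell with 3 (6.52%), and *NOB1* rose with 7 (15.2%) and fell with 1 (2.17%). Against the shares of all probes given above, the shares of lipid genes that rose were near those of all probes for *NAT10*, *NOB1* and *MRTO4* and above them for the other 3 factors. The median r over the 46 genes ran from -0.017 with *NOB1* to 0.154 with *IMP4*, so lipid genes lay on both sides of 0 for every factor.

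**Figure D5:**
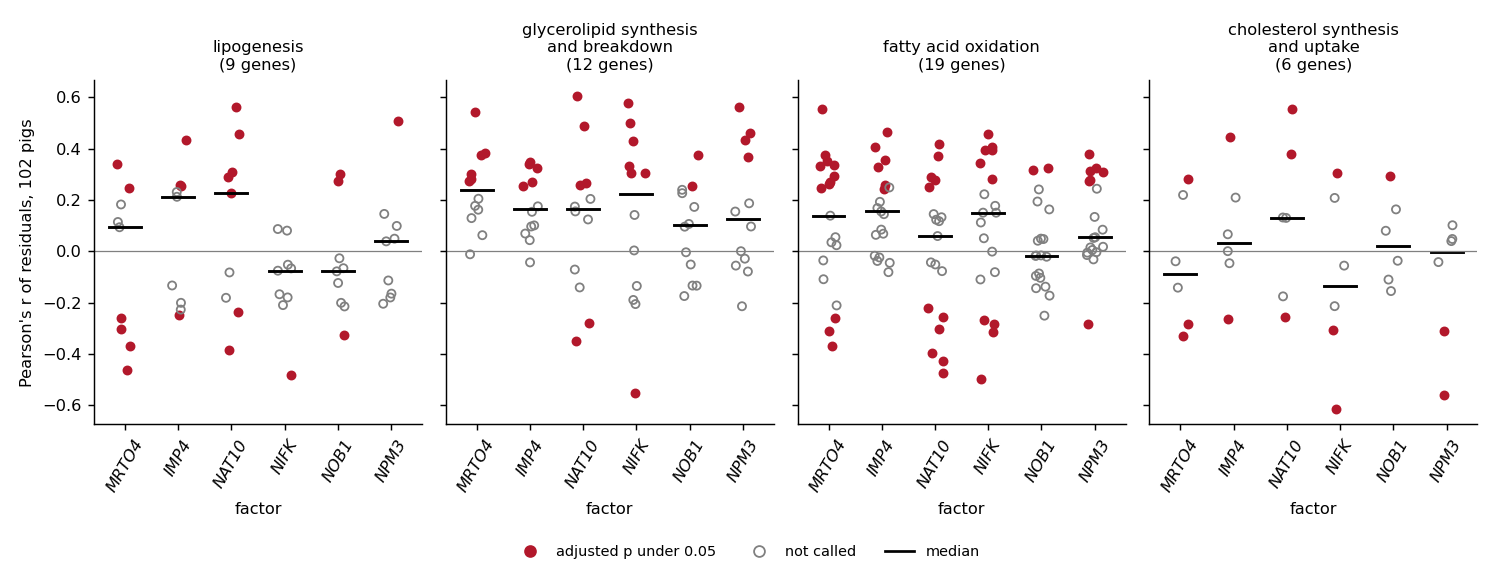
Pearson's r of residuals over 102 pigs between each of the 6 factors (horizontal axis) and the genes of 4 lipid lists, 1 point per gene (filled where the limma adjusted p was under 0.05) with the median as a bar. Glycerolipid genes lie mostly above 0 for *MRTO4* and *IMP4*, and *NIFK* has the widest spread, from -0.613 to 0.576.

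Glycerolipid genes had the highest mean r of the 4 lists, with a median of 0.153 over 12 genes, against 0.059 over 19 fatty acid oxidation genes, -0.015 over 9 lipogenesis genes and -0.035 over 6 cholesterol genes. The median over 2195 named genes was 0.085, so only the glycerolipid list lay above it. *GPAT4*, which makes the first step of glycerolipid synthesis, was called with all 6 factors, most closely with *MRTO4* (r = 0.544, rho = 0.505) and *NPM3* (r = 0.461, rho = 0.370). With *MRTO4* its r was -0.059, 0.709 and 0.319 within batches 1, 2 and 3. *LPIN1*, a phosphatidate phosphatase, rose with *NOB1* (r = 0.377) and *MRTO4* (r = 0.376). *ABHD5*, the co-activator of the main triglyceride lipase, rose with *NIFK* (r = 0.576, rho = 0.578, permutation p = 1e-05 for both, limma adjusted p = 4.37e-08) and *NPM3* (r = 0.562, rho = 0.433, permutation p = 1e-05 for both), and had r = -0.141 with *NAT10* (permutation p = 0.158). Its r with *NIFK* was 0.586, 0.553 and 0.751 within batches 1, 2 and 3. *PLIN2*, a coat protein of lipid droplets, had r = 0.500 with *NIFK* and 0.432 with *NPM3*. Most pigs lay near the bottom of the scale for *NPM3*, and no rho is given for its relation with *PLIN2*. *GPD1*, which supplies glycerol phosphate, had r = 0.605 with *NAT10* and -0.550 with *NIFK*. *PLIN2* and *GPD1* were named after their values had been seen.

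Among lipogenesis genes, *TALDO1*, an enzyme of the pentose phosphate pathway, had the largest mean r (0.349) and was called with 5 factors, most closely with *NPM3* (r = 0.508, rho = 0.443, permutation p = 1e-05 for both). *ELOVL6*, the elongase of palmitate to stearate, had the second largest (-0.231). It fell with *MRTO4* (r = -0.463, rho = -0.464, permutation p = 1e-05 for both, limma adjusted p = 6.96e-06), at r = -0.324, -0.385 and -0.744 within batches 1, 2 and 3 and -0.428 without the 2 pigs farthest from the median. It also fell with *NAT10* (r = -0.235, rho = -0.213, permutation p = 0.0174 and 0.0319, limma adjusted p = 0.0289), and had r of -0.066 to -0.215 with the other 4 factors, none of them called. *MID1IP1*, an activator of acetyl-CoA carboxylase, rose with *NAT10* (r = 0.560).

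Among fatty acid oxidation genes, the largest mean r belonged to *PPARD*, a nuclear receptor that activates fat burning in muscle, *ETFDH*, which passes electrons to the respiratory chain, and *ACADVL*, a dehydrogenase of long fatty acids. *PPARD* had r = 0.553 with *MRTO4* (limma adjusted p = 9.85e-08), and *ACADVL* had r = 0.405 with *IMP4* (limma adjusted p = 0.000475). Of the cholesterol genes, *FDFT1*, the squalene synthase, fell with *NIFK* (r = -0.613, limma adjusted p = 5.92e-09) and *NPM3* (r = -0.560, limma adjusted p = 6.64e-07). For *NPM3* most pigs lay near the bottom of the scale (median 3.05), and no rho is given here for its relation with *FDFT1*. *FDPS*, which makes farnesyl pyrophosphate, rose with *NAT10* (r = 0.553, limma adjusted p = 8.07e-08), and *SCAP*, the escort of the sterol-sensing transcription factors, rose with *IMP4* (r = 0.446, limma adjusted p = 0.000104).

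A last group held the genes of the study's association results. The probe named *RDH16* had r = 0.449 with *IMP4* and 0.407 with *NAT10*, and that of *IL1R2*, a decoy receptor of interleukin, had r = -0.468 with *NPM3*. These 3 relations had chosen the factors and carry no test. They were 0.628, 0.451 and 0.253 (*RDH16* with *IMP4*), 0.107, 0.471 and 0.393 (*RDH16* with *NAT10*) and -0.425, -0.520 and -0.291 (*IL1R2* with *NPM3*) within batches 1, 2 and 3. *RDH16* had r of -0.040 to 0.126 with the other 4 factors, none of them called. *IL1R2* fell with *NIFK* (r = -0.315, rho = -0.283, permutation p = 0.00124 and 0.00433, limma adjusted p = 0.00639). *NUDT7*, a peroxisomal hydrolase of coenzyme A, rose with *NIFK* (r = 0.379, rho = 0.344, permutation p = 9e-05 and 0.00059) and *IMP4* (r = 0.291, rho = 0.274, permutation p = 0.00307 and 0.0057). *MGST2*, a glutathione transferase of the endoplasmic reticulum, fell with *MRTO4* (r = -0.274, limma adjusted p = 0.0118) and *NAT10* (r = -0.225, limma adjusted p = 0.0392). *LIPG*, the endothelial lipase, rose with *NIFK* (r = 0.295, limma adjusted p = 0.00960) and *MRTO4* (r = 0.277, limma adjusted p = 0.00973). *KIT*, a receptor kinase, was called with 0 factors, and its r lay between -0.158 and 0.034 (limma, lowest adjusted p = 0.206). In all, 294 relations between the factors and 49 named genes were computed, and their limma p-values were adjusted over all probes for each factor.

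Markers of other cells lay beside these relations. All 9 fibroblast and matrix genes had a mean r below 0 with the factors, from -0.323 to -0.010, led by *DCN*, or decorin. The mean residual of that list had r = -0.296 with *NOB1*, -0.287 with *NAT10*, -0.251 with *IMP4*, -0.238 with *MRTO4*, -0.119 with *NPM3* and -0.077 with *NIFK*, and its level ran from 7.01 to 8.76 in batch 1, 6.90 to 9.04 in batch 2 and 6.53 to 8.79 in batch 3. The mean residual of the 3 adipocyte markers had r of -0.113 to 0.022 with the factors, but its genes went opposite ways. *CFD*, an adipocyte protease, had r = 0.425 with *NAT10* and -0.232 with *NIFK*, whereas *FABP4*, a fatty acid carrier, had r = -0.291 with *NAT10* and 0.355 with *NIFK*. The mean residual of the 6 endothelial markers had r of -0.154 to 0.286, and the single markers ran from -0.310 (*TEK* with *NAT10*) to 0.406 (*ESAM* with *MRTO4*). That of the 6 macrophage markers had r of -0.036 to 0.276, and the single markers ran from -0.280 (*MRC1* with *NAT10*) to 0.392 (*TYROBP* with *MRTO4*). The part of these cells in the relations with lipid genes was not tested.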

How the data were processed

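*Longissimus dorsi* RNA of 102 pigs was measured on 1 Affymetrix array each. The authors checked array quality, normalized the scanner intensities with GCRMA and deposited log2 intensities of 5493 probes that passed a filter on variation, so genes outside that table were not analysed here. Depth does not apply to arrays, and their number limits the precision. The 44 control probes were left out, which gave 5449 tested probes. Of these, 2639 had 1 gene symbol, 49 had several and 2761 had none, and no unused columns of samples were found (0). Groups came from the labels for sex, slaughter batch and carcass weight. The pigs are related, and were treated as independent because the pedigree was not used.

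Models were fitted with limma 3.58.1 in R 4.3.3, and r, rho and 100000 permutations were computed in Python 3.11.15 with numpy 2.4.6, pandas 2.3.3 and scipy 1.17.1. Both steps were tested on simulated data. The factors and gene lists were chosen with earlier results of these data known. The genes named were the 6 factors, the 6 other ribosome biogenesis genes with the smallest p for batch, the smallest p for weight and the highest mean r, 3 genes of each lipid list and 4 of muscle growth signalling with the largest mean r in size, the genes of the study's association table, and the 6 genes with the highest and the lowest mean r. A search of promoters for motifs was not run and no sequences were used here.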

Additional observations from a re-analysis of the deposited data

Results flagged for a closer look

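Dixon's criterion was applied to the 9 probes of the factors in the 8 females and 6 males of batch 1 and the 7 males of batch 3. Of these 27 tests, in which chance gives about 1 in 20, 2 found a pig far from the rest. The tests share pigs and are not independent. Among the 8 females of batch 1, the highest *IMP4* value was 8.42 and the next was 7.36. In the same group the highest *NPM3* value was 3.76 and the next was 3.05.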

How the results depend on the processing

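Under 16 alternative settings, 5 of 6 factors stayed called for batch wherever it was tested, except that *NIFK* lost its call with its second probe, but several counts moved. With 2 principal components added, 4 factors were called for sex (against 2), 1 other ribosome biogenesis gene for weight (against 0), 4 ordered pairs of factors (against 18), 28 relations with lipid genes (against 114) and 27 with other ribosome biogenesis genes (against 83). These components were of the residuals, and left the fitted sex, batch and weight effects of the factors unchanged. Only the p-values moved, as for *NIFK* and sex (-0.21 in both, limma adjusted p = 0.00368 against 0.0541). With no other covariates, 4 factors and 22 other ribosome biogenesis genes were called for weight, and 198 lipid and 130 ribosome biogenesis relations. In females only, the counts were 1 ribosome biogenesis gene for weight, 7 ordered pairs and 74 lipid relations. In males only, they were 9 ordered pairs, 55 lipid and 35 ribosome biogenesis relations. Over all probes, 9 rose and 1 fell with *NOB1* in females, and 324 and 306 in males, against 688 and 596 in all pigs. With *IMP4*, 1231 rose and 556 fell in females, and 43 and 17 in males, against 1248 and 718 in all pigs. The cause was not tested.

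Signs turned only for values that had not been called, except that the second probe of *NIFK* gave -0.12 for batch 1 minus batch 2. For *NPM3*, batch 3 minus batch 2 was 0.066 with quantile normalization, 0.027 without the arrays that stood apart and 0.21 in females, and batch 1 minus batch 2 was 0.13 with age added. The weight slope of *NIFK* was -0.0010 with age added, -0.082 with no other covariates, -0.0025 without the arrays against their sex label, -0.0042 without those that stood apart, -0.019 in batch 2, -0.00098 with batch as a random block and -0.075 in males. In batch 2 the slopes were also -0.0061 for *MRTO4*, -0.038 for *NOB1* and -0.047 for *NPM3*, and in males -0.081 for *MRTO4*, -0.016 for *NAT10* and -0.13 for *NOB1*. The slope of *NOB1* was -0.0093 without the 2 pigs farthest in weight and -0.032 for its second probe. No paired analysis was possible because each number in the labels names 1 pig.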
